A study of Homo sapiens with 2 samples.

Results

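The genes described here lie near the end of the short arm of human chromosome 12. They are the rows of a table of genes called different between a pair of ovarian cancer lines that lie on chromosome 12 and start below position 21000000 (GRCh38). There are 36 such genes among the 1806 in the table, all of them protein-coding in GENCODE release 29. RNA came from UWB1.289, an established serous ovarian carcinoma line whose genotype label is BRCA1 knockout, and from its partner UWABRCA1 with BRCA1, labelled wild type. Both were untreated, and total RNA was depleted of ribosomal RNA and made into strand-specific libraries, with 1 sample per line in the labels. No other allele or agent is named in the labels, which do not say whether either line is a single clone. Each value is FPKM, the number of fragments of a gene relative to the length of its transcripts and the size of the library. The authors give 1 value per line, which was read here from its decimals as a mean. The spread behind the means and the sequencing depth are unknown, so no error or n can be given for any FPKM, and differences between the lines have no replicate check here. The genes were chosen from this same comparison with its results known, so their directions are given as a description and without a test.

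BRCA1 is the tumour suppressor that repair of DNA breaks by homologous recombination depends on. Cells that lack it are known for broken and rearranged chromosomes. The short arm of chromosome 12 carries genes of many unrelated functions, among them chromatin regulators, Wnt pathway genes, ion transport genes, glucose transporters and clusters of lectin-like and bitter taste receptors. BRCA1 itself (ENSG00000012048, chromosome 17) was at 5.63 FPKM in the line labelled knockout and at 22.03 FPKM in its partner. BRCA1 RNA was therefore lower but still present in the line labelled knockout, at 25.6% of the partner's level by FPKM. The log2 fold change of BRCA1 in the authors' deposited table was -2.89, a larger drop than by FPKM. The line labelled knockout is called deficient here after its label. Of 11 markers of serous ovarian and Mullerian epithelium, 3 had a row in the table, 2 lower and 1 higher in the deficient line, with a summed level of 9.02 against 8.11 FPKM. The others were not analysed here, so the labelled cell type could not be checked further. Of 4 endothelial markers 2 had a row, CDH5 and EGFL7, both higher, with a summed level of 39.4 against 11.7 FPKM, and their part in the results was not tested.

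A promoter shared by a pair of the genes, a widely expressed gene and a taste receptor show how different the starts of the genes in this stretch are. C12orf4 and RAD51AP1 are transcribed away from each other, with 289 bases between the gene bounds given in the table, and their promoter windows overlap by 80 bases. STRAP had the highest level of the 36 genes in the line with BRCA1, and TAS2R13 the highest level of the taste receptors. Each window holds 250 bases before and 50 bases from the RefSeq start (GRCh38.p14), read 5′ to 3′ on the strand of the gene. They lie at chr12:4538420-4538719 on the minus strand for C12orf4, chr12:4538640-4538939 on the plus strand for RAD51AP1, chr12:15882137-15882436 on the plus strand for STRAP and chr12:10909513-10909812 on the minus strand for TAS2R13. Capitals mark exact matches, on either strand, to the CCAAT box, searched by the letters in its name, or to any of 3 other sites. The GC box was searched as GGGCGG. The TATA box was searched with the letters TATAAA. The E2F-like site was searched as the run GGCGGGAA.
C12orf4: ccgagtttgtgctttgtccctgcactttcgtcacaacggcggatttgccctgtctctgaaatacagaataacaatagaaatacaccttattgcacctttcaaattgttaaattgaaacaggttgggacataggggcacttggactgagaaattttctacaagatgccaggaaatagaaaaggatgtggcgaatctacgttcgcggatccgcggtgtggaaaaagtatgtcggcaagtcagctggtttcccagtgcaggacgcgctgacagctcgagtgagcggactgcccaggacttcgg
RAD51AP1: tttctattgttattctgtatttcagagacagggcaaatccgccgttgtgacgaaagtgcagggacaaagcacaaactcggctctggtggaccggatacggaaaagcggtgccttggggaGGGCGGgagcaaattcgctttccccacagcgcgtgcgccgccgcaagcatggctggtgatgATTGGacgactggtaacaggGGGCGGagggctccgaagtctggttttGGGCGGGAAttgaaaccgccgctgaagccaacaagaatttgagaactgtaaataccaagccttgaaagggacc
STRAP: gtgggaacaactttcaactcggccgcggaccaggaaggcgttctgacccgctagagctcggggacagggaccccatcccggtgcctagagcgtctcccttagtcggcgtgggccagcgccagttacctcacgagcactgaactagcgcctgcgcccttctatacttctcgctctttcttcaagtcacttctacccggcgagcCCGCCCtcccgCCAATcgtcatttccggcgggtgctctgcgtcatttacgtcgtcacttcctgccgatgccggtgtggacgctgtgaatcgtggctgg
TAS2R13: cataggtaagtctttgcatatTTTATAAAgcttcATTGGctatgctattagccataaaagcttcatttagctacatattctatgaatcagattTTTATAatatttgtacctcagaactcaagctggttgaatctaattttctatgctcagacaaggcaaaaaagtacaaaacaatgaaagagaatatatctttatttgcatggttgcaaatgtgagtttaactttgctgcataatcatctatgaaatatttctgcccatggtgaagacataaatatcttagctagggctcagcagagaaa
The E2F-like letters in RAD51AP1 overlap a GC box. The C12orf4 window has no match to the 4 motifs, and the TAS2R13 window has no CG pair.

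Of the 36 genes, 34 were lower in the BRCA1-deficient line and 2 higher, by the sign of the log2 fold change in the authors' deposited table. Over all 1806 listed genes 46.5% were lower and 53.5% higher. On the scale of log2(FPKM + 1), deficient minus BRCA1-expressing, a scale on which low genes appear to change less than they do, 18 of the 36 were at least 2-fold lower, where the same share of all listed genes is 22.5%, and 1 was at least 2-fold higher, where it is 25.3%. The median difference was -0.998, against 0.20 over all listed genes. Both medians are of log2 differences of FPKM + 1. In the authors' deposited table the 36 adjusted p-values ran from 9.54e-12 to 0.0433, and 18 of them were at most 0.01. The largest among all listed genes is 0.0499, so the upper end of this range follows from which genes were listed. How many of all listed genes were at most 0.01 was not worked out. The sources used here do not name the test behind these p-values.

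**Figure D1:**
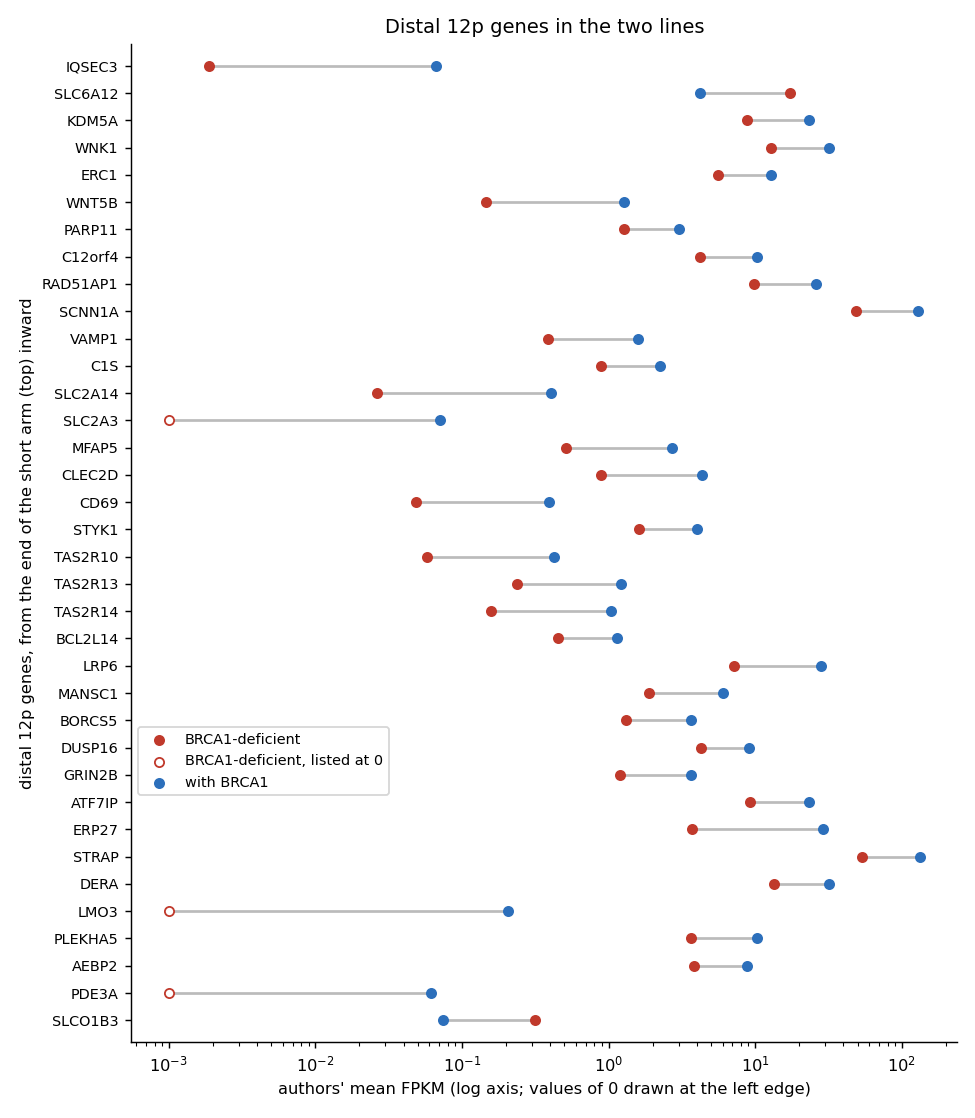
Authors' FPKM, read here as means, of the 36 distal 12p genes (log axis). Red is the BRCA1-deficient line and blue the line with BRCA1, in chromosomal order from the end of the arm at the top. The red point lies left of the blue one for 34 genes and right of it for SLC6A12 and SLCO1B3, and open points are the 3 genes listed at 0 in the deficient line.

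RAD51AP1, KDM5A, ATF7IP and AEBP2, genes of chromatin and recombination, were lower. RAD51AP1 (ENSG00000111247, chromosome 12, 4538798 to 4560048), an accessory protein of homologous recombination, had 9.80 FPKM in the deficient line and 26.1 FPKM with BRCA1. KDM5A (ENSG00000073614, 280129 to 389454), which removes methyl groups from lysine 4 of histone H3, had 8.79 against 23.2 FPKM. These genes thus kept 37.6% and 38.0% of the level they had with BRCA1. ATF7IP, a partner of the histone H3 lysine 9 methyltransferase SETDB1, had 9.22 against 23.3 FPKM, and AEBP2, an accessory subunit of Polycomb repressive complex 2, had 3.82 against 8.80 FPKM. In the authors' deposited table the log2 fold changes of the 4 genes were -1.10 for RAD51AP1, -1.32 for KDM5A, -1.17 for ATF7IP and -1.10 for AEBP2. Of 13 chromatin, recombination and cell cycle genes of the arm in the list used, these 4 had a row, all lower, and the other 9, RAD52 and FOXM1 among them, were not analysed here. The neighbour of RAD51AP1, C12orf4, a subunit of the FERRY complex on early endosomes, had 4.19 against 10.3 FPKM. C12orf4 and RAD51AP1, whose promoter windows are printed above, kept 40.5% and 37.6% of their level with BRCA1.

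Of 19 secreted ligands, receptors and matrix genes of the arm in the list used, 3 had a row, LRP6, WNT5B and MFAP5, all lower. LRP6 (ENSG00000070018, 12116025 to 12267044), a co-receptor for Wnt ligands, had 7.17 FPKM in the deficient line and 27.95 FPKM with BRCA1, and so kept 25.6% of its level. WNT5B, a secreted Wnt ligand, had 0.146 against 1.28 FPKM. MFAP5 (8637346 to 8662888), a glycoprotein of extracellular microfibrils, had 0.515 against 2.71 FPKM. The log2 fold changes in the authors' deposited table were -1.82 for LRP6, -2.30 for WNT5B and -2.42 for MFAP5. The complement protease C1S had 0.891 against 2.25 FPKM. MFAP5 also belongs to a list of 6 fibroblast markers, of which 3, COL1A2, MFAP5 and PDGFRA, had a row, all lower. Their summed level, MFAP5 included, was 11.05 against 100.1 FPKM, and PDGFRA was listed at 0 in the deficient line. MFAP5 made up little of either sum. The part of the other markers in the MFAP5 result was not tested.

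Genes of ion and solute transport went both ways, and this group holds both genes that were higher. SCNN1A (ENSG00000111319, 6346843 to 6377730), the alpha subunit of the epithelial sodium channel, had 49.1 FPKM in the deficient line and 129 FPKM with BRCA1. WNK1, a kinase that controls chloride cotransporters, had 12.9 against 31.7 FPKM. In the other direction, SLC6A12 (ENSG00000111181, 190077 to 214570), a transporter of betaine and GABA, had 17.3 FPKM in the deficient line and 4.22 FPKM with BRCA1. SLCO1B3, an organic anion transporter of liver, had 0.317 against 0.0740 FPKM and so stayed low in both lines. It overlaps the annotated gene AC011604.2 on its strand, with which it can share reads. In the authors' deposited table the log2 fold change of SLC6A12 was 2.10 (adjusted p 0.000445), that of SLCO1B3 2.07 (adjusted p 0.0102), that of SCNN1A -1.18 and that of WNK1 -1.34. Of 12 channel and transporter names of the arm in the list used, these 4 had a row. SLC6A12 lies between IQSEC3 and KDM5A, both lower, and 65558 bases separate the bounds of SLC6A12 and KDM5A.

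The pair of glucose transporter genes of the arm was near silent in both lines, and lower in the deficient one. SLC2A14 (ENSG00000173262, 7812512 to 7891148) had 0.0265 FPKM in the deficient line and 0.402 FPKM with BRCA1. SLC2A3 (ENSG00000059804, 7919230 to 7936187), which encodes the high-affinity glucose transporter GLUT3, was at 0.0708 FPKM in the line with BRCA1 and listed at 0 in the other, so no fold is given from its FPKM. The longest coding sequences of the pair in GENCODE are identical at 96.8% of 1491 aligned bases, with runs of up to 137 identical bases, so reads can be counted to either gene and the split between them is uncertain. Even the 90 aligned bases that differ most, from base 639 of the SLC2A14 and base 522 of the SLC2A3 coding sequence, hold only 8 mismatches, which are in capitals here.
SLC2A14: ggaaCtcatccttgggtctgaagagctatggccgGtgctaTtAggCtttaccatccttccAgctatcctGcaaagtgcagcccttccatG
SLC2A3: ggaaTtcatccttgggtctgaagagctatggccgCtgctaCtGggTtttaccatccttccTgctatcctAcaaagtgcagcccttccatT
Both genes are members of a list of glucose transporters of the arm that holds no others.

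Bitter taste receptors of the 12p cluster, G protein-coupled receptors for bitter compounds, were at most 1.21 FPKM in either line and lower in the deficient one. TAS2R13 (ENSG00000212128, 10907926 to 10918737) had 0.239 FPKM in the deficient line and 1.21 FPKM with BRCA1. TAS2R14 had 0.157 against 1.04 FPKM, and TAS2R10 had 0.0579 against 0.423 FPKM. They kept between 13.7% and 19.7% of the level with BRCA1, though genes this low may be listed only where their fold is large. Of the 14 receptor genes in the list used, the other 11 were not analysed here. The coding sequences of the 3 receptors are identical at 59.0% to 67.2% of aligned bases, with no identical run over 14 bases. Their values are still uncertain, since all 3 lie within the annotated gene PRH1 on the same strand, and the span given for TAS2R14 holds 7 further taste receptor genes, so reads of spliced transcripts across the cluster can enter their values. Of 26 lectin-like and killer-cell receptor genes of the arm in the list used 2 had a row, both lower. CLEC2D, a ligand of the natural killer cell receptor KLRB1, had 0.884 against 4.36 FPKM, and CD69, an early activation marker of lymphocytes, had 0.0487 against 0.391 FPKM. None of 5 leukocyte markers had a row.

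On the log2(FPKM + 1) scale the largest difference among the 36 genes was that of ERP27, and STRAP had the highest level in either line. ERP27 (ENSG00000139055, 14914039 to 14938537), a non-catalytic member of the protein disulfide isomerase family in the endoplasmic reticulum, had 3.73 FPKM in the deficient line and 29.2 FPKM with BRCA1, a log2 difference of FPKM + 1 of -2.67. The authors' deposited table gives it a log2 fold change of -3.03 and, at 9.54e-12, the smallest adjusted p of the 36. By that table's log2 fold change 5 genes that stayed under 0.5 FPKM in both lines, LMO3 at -8.11, PDE3A, SLC2A3, IQSEC3 and SLC2A14, exceeded ERP27. STRAP (15882387 to 15903478), a WD repeat protein that binds TGF-beta receptors and takes part in spliceosome assembly, had 53.7 against 132.9 FPKM. The next gene, DERA (15911302 to 16037381), an aldolase that breaks down deoxyribose phosphate, had 13.4 against 31.7 FPKM. STRAP and DERA lie on the same strand, 7823 bases apart in the bounds given, and kept 40.4% and 42.1% of their level with BRCA1.

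The remaining genes of the stretch, which belong to none of the lists used, were also lower. ERC1, a scaffold of vesicle release sites, had 5.58 against 12.9 FPKM, DUSP16, a phosphatase of the kinases JNK and p38, had 4.28 against 9.01 FPKM, and PLEKHA5, a protein with a pleckstrin homology domain, had 3.65 against 10.2 FPKM. DUSP16 kept 47.5%, the most of the 34 lower genes described here. MANSC1 had 1.89 against 6.01 FPKM, STYK1, a kinase-like membrane protein, 1.62 against 3.98 FPKM, and PARP11, a mono-ADP-ribosyltransferase, 1.28 against 3.04 FPKM. BORCS5, a subunit of the BORC complex that positions lysosomes, had 1.32 against 3.66 FPKM, and GRIN2B, a subunit of NMDA glutamate receptors, had 1.20 against 3.66 FPKM. All of these stayed above 1 FPKM in the deficient line. VAMP1, a vesicle fusion protein, had 0.389 against 1.58 FPKM, and BCL2L14, a member of the BCL2 family, had 0.454 against 1.14 FPKM. The last 3 genes were near silent. IQSEC3, an exchange factor for ARF GTPases, had 0.00188 against 0.0666 FPKM, and LMO3, a LIM-domain transcription cofactor, and PDE3A, a phosphodiesterase, were at 0.205 and 0.0614 FPKM in the line with BRCA1 and listed at 0 in the other.

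Some of these values may include reads of other genes. The spans of 13 of the 36 genes given in the table overlap the GENCODE bounds of another coding gene, 5 of them on the same strand and 10 on the opposite one. BCL2L14 and LRP6 overlap on opposite strands, the span given for BORCS5 reaches into DUSP16 on the opposite strand, and C1S overlaps EMG1 on its strand. The libraries keep strand, but the sources used here do not say whether the counting used it.

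The better expressed lower genes mostly kept between 30% and 50% of their level with BRCA1. With a mean over both lines of 5 FPKM or more there were 14 lower genes of the 36, and the deficient line had between 12.8% and 47.5% of the level with BRCA1, with a median of 40.0% and quartiles of 37.7% and 41.7%. All but ERP27 and LRP6, 12 of 14, fell between 30% and 50%. These bounds and the level of 5 FPKM were chosen after the values were seen. Among the 260 lower genes at this mean level outside distal 12p the median was 38.6%, the quartiles were 29.8% and 44.2%, and 66.2% fell between these bounds. With 5 FPKM asked of the deficient line alone it was 8 of 9 in distal 12p and 114 of 152 elsewhere. These genes were picked for level and direction, so the shares are a description and support nothing. The smallest absolute log2 fold change in the whole of the authors' deposited table is 0.96, so genes with smaller differences are missing from either group, which limits the upper end of both ranges. Lower genes under 1 FPKM with BRCA1, 7 of the 36, had log2 fold changes between -8.11 and -2.79 in the authors' deposited table. Genes this low may be listed only where their fold is large, so this range is not a result about these genes. The same range over all listed genes was not worked out.

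**Figure D2:**
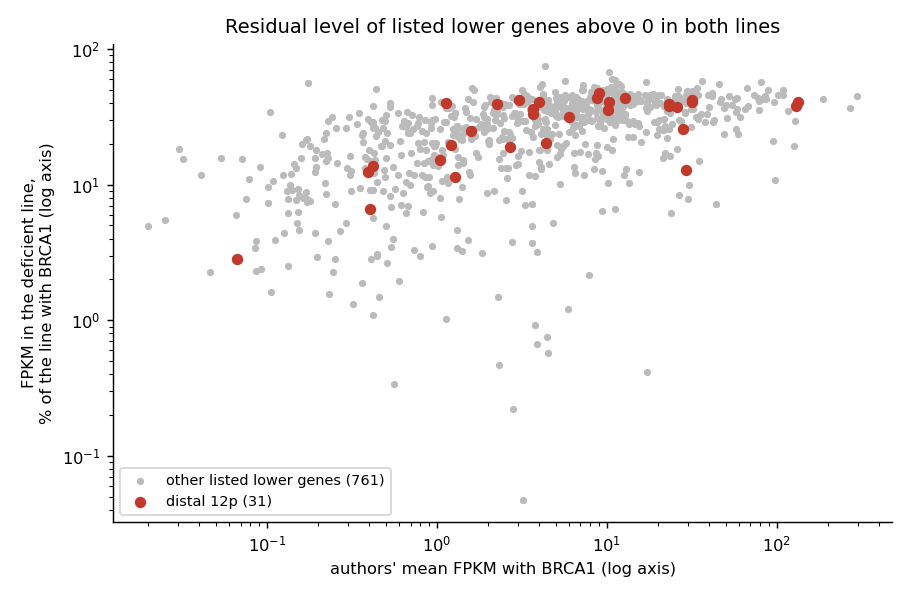
FPKM in the deficient line as a percentage of the line with BRCA1, against FPKM with BRCA1 (both log axes), for listed lower genes above 0 in both lines: 31 distal 12p genes in red and 761 others in grey. Most of the red points at 5 FPKM or more lie in a band around their median of 39.6%, with LRP6 at 25.6% and ERP27 at 12.8% below it.

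The lower genes stood in an almost unbroken row. In chromosomal order, 33 consecutive listed genes from KDM5A to PDE3A were lower, the longest such row on chromosome 12, bounded by SLC6A12 on one side and SLCO1B3 on the other. In windows of 5 Mb from the end of the arm, 8 of 9, 8 of 8, 12 of 12 and 5 of 5 listed genes that start below 20 Mb were lower. The position that bounds the genes described here does not mark a change of direction. Just inside it lie PDE3A, lower, and SLCO1B3, higher. Just outside lie PYROXD1 at 2.26 FPKM in the deficient line against 7.18, the DNA helicase RECQL at 9.73 against 22.7, and GOLT1B at 7.09 against 15.2 FPKM, all lower. From there to position 35000000, close to the end of the short arm, 20 of 21 listed genes were lower, and beyond it 26 of 66, or 39.4%.

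**Figure D3:**
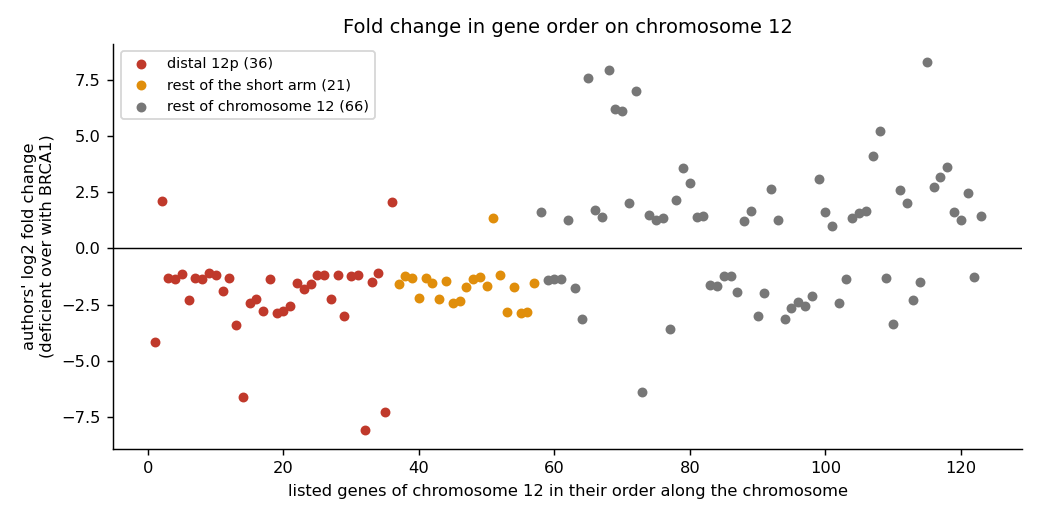
The log2 fold change in the authors' deposited table (deficient over BRCA1-expressing) of the 123 listed genes of chromosome 12 in their order along it. Red points, the 36 distal 12p genes, and orange points, 21 genes of the rest of the short arm, lie below 0 except for 3 genes, while the 66 grey points beyond lie on both sides.

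The share that was lower varied widely between chromosomes. On chromosome 18, 45 of 47 listed genes were lower, against 34 of 36 in distal 12p, and on chromosome 6 it was 88 of 116. On chromosome 22, 5 of 44 were lower. The difference between distal 12p and chromosome 18 was not tested.

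**Figure D4:**
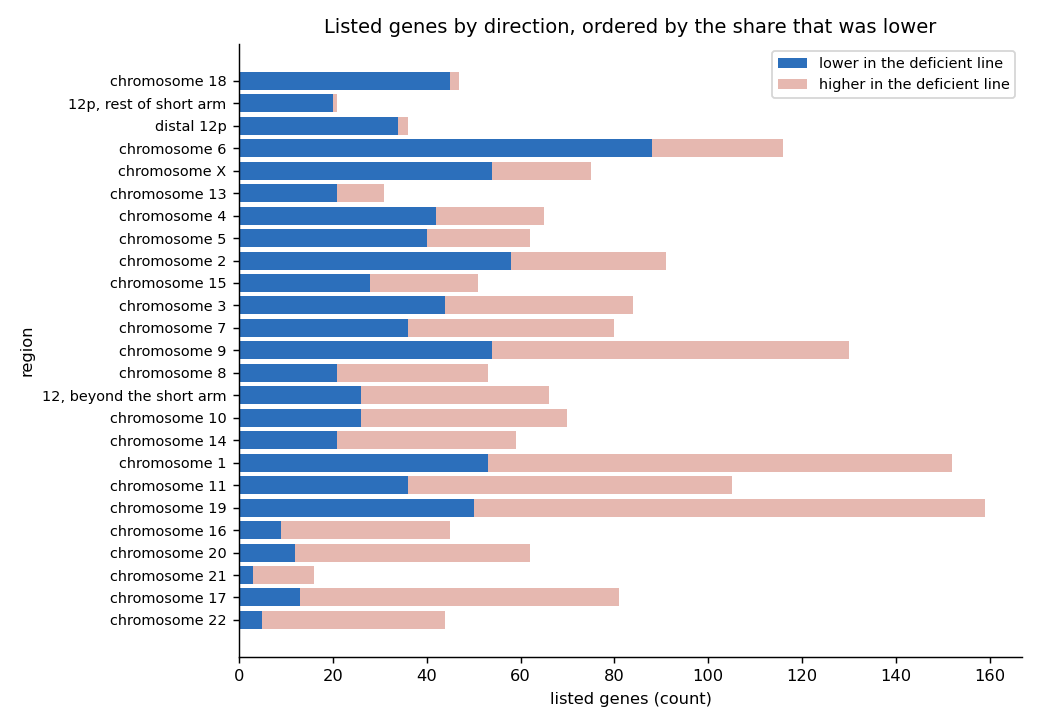
Number of listed genes lower (blue) and higher (pink) in the BRCA1-deficient line, by chromosome with chromosome 12 in 3 stretches, ordered by the share that was lower. Distal 12p, with 34 of 36 lower, stands just after chromosome 18 and the rest of the short arm of chromosome 12.

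Most coding genes of the stretch had no row, but a larger share was listed as lower than over all chromosomes. GENCODE annotates 227 coding genes that start in the stretch, and 34 of them, 15.0%, were listed as lower and 2, 0.881%, as higher. Over chromosomes 1 to 22 and X, 4.21% of 19864 coding genes were listed as lower and 4.82% as higher. The stretch was not alone in this, since on chromosome 18 it was 16.7% of 269 coding genes lower and 0.743% higher. Genes without a row include those that are silent in both lines, so these shares are not shares of expressed genes.

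GC content moved with the direction of listed genes throughout the table. The 36 genes had a median transcript GC content of 44.0%, between 34.1% and 63.2%, against 51.5% for all listed genes, and the median over lower genes elsewhere was 44.1%. Of the listed genes outside distal 12p, 85.5% were lower in the lowest GC quintile and 10.3% in the highest. Weighted to the GC quintiles of the 36 genes, 67.8% of the other listed genes were lower, where the unweighted share was 45.5% and distal 12p had 94.4%. In the 3 quintiles of highest GC content, 8 of 9 distal 12p genes were lower, where 40.1%, 19.1% and 10.3% of the other listed genes were. The part of GC content in the result was not tested.

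**Figure D5:**
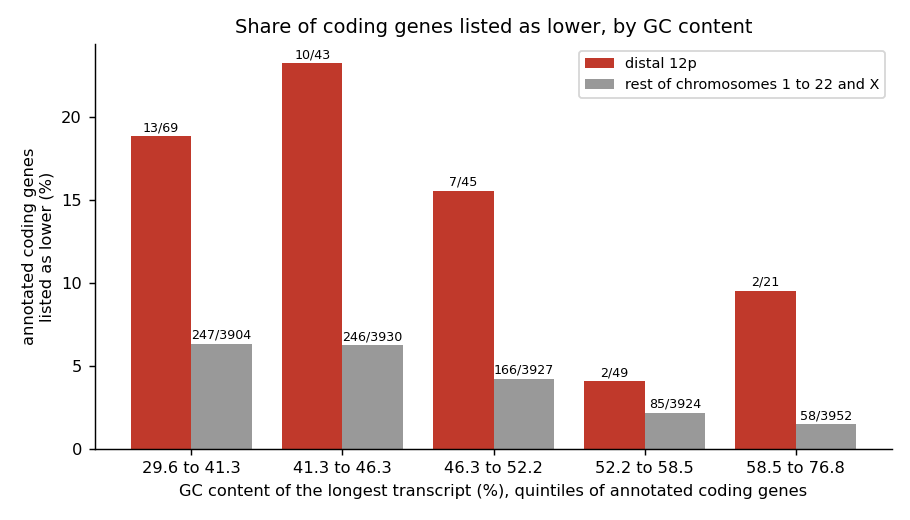
Percentage of annotated coding genes listed as lower in the BRCA1-deficient line, by quintile of the GC content of their longest transcript, for distal 12p (red) and the rest of chromosomes 1 to 22 and X (grey), with the counts above each bar. The red bar is the taller one in each quintile, with 18.8% against 6.33% in the lowest and 9.52% against 1.47% in the highest. The gap was smallest in quintile 4, at 4.08% against 2.17%. The red bars of quintiles 4 and 5 rest on 2 genes each.

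Gene structure and promoters were mixed. The genes span from 1.04 kb to 544 kb with a median of 85.5 kb, where the median of lower genes elsewhere is 66.3 kb, and 16 lie on the plus and 20 on the minus strand. A RefSeq promoter window was found for 26 of the 36. The GC box was in 65.4% of them, in 62.5% of 632 windows of other lower listed genes and in 44.6% of all 27305 windows. The CCAAT box was in 42.3%, 36.9% and 35.7% of the same sets, and the TATA box in 7.69%, 7.12% and 11.95%. The E2F-like letters were in 2 of the 26, RAD51AP1 and DERA, or 7.69%, against 4.11% and 3.18%. The ratio of observed to expected CG pairs was at least 0.6 in 17 of the 26, or 65.4%. It was so in 70.3% of the windows of other lower listed genes and in 49.0% of all windows. The 9 under 0.6 were the windows of WNT5B, CLEC2D, the 3 taste receptors, BCL2L14, LMO3, PDE3A and SLCO1B3. Only the first RefSeq start found for each gene was used, and some windows lie inside the gene bounds. The PDE3A window, for example, begins at 20571829, while the bounds given for the gene begin at 20369245. Other starts of these genes were not analysed. A match to these letters describes the sequence and is not a measured binding site.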

How the data were processed

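Total RNA from 2 samples, 1 per line, was sequenced, and 1 table of genes called different was used. It holds 4 kinds of deposited value. FPKM is given by the authors as 1 value per line. Every deposited FPKM, multiplied by 3, was a whole number of steps of its sixth decimal within a tolerance of 0.02. Each was therefore read as a mean over 3 values, which the labels do not state. Since the labels describe 1 sample per line, what those 3 values are is not stated. Per the file headers, the p-value, adjusted p-value and log2 fold change come from a comparison by the authors, whose test the headers do not name. The submitters' processing notes name HISAT2, StringTie 1.3.3b and the mouse build mm9, while all 36 gene IDs matched GENCODE release 29, at coordinates of GRCh38, which are used here.

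Differences were taken between log2 values of FPKM plus a pseudocount of 1, with no filter. No test across samples was made. The genes and lists were chosen with earlier results of these data known. Every one of the 36 genes is named, with values in both lines. Outside the stretch the rule names BRCA1 and the 3 next listed genes. GC content is that of the longest GENCODE transcript, in quintiles of listed genes, or of annotated coding genes for shares of those. Alternatives were other pseudocounts, scalings, filters, a 4-fold rule, a stricter adjusted p and other region ends. The median difference, the lower shares inside and outside the stretch and the scaling to equal totals were tested on simulated data. The other summaries were not. Python 3.11.15, numpy 2.4.6, pandas 2.3.3, scipy 1.17.1, matplotlib 3.10.9 and Biopython 1.88 were used.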

Additional observations from a re-analysis of the deposited data

How the results depend on the processing

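A pseudocount cannot turn a direction, and equal totals and centring both lower the deficient line, so they can act only against the 2 higher genes. The log2 ratios of FPKM, 2.04 for SLC6A12 and 2.10 for SLCO1B3, exceed in size the larger of these shifts, -1.01. No direction of the 36 genes could therefore turn, and the unchanged directions are no check. By size, 31 genes were at least 2-fold lower and 2 higher with a pseudocount of 0.1, and 34 and 2 with 0.01. Over all 1806 listed genes these counts rose too, from 406 lower and 457 higher to 756 and 840, and to 812 and 896. The 4-fold rule left 1 lower and 0 higher, and its counts over all listed genes were not worked out. The median log2 difference was -1.39 and -1.47 with these pseudocounts, -1.25 with equal totals, -1.52 when centred on the median ratio (which left 0 genes at least 2-fold higher), and -1.51 by the authors' deposited log2 fold change. Centring shifts log2 values of the deficient line by -1.01 and takes the median of all listed genes from 0.20 to -0.01, with 550 of them at least 2-fold lower and 63 higher. With equal totals it was 520 and 178, so the share of all listed genes past 2-fold depends strongly on the scaling. Of the 36 genes, 24 were at least 2-fold lower and 0 higher when centred, and 23 and 1 with equal totals. With 1 FPKM or more in at least one line 1 gene was higher and the median was -1.10. With 1 FPKM or more in both lines 19 were lower and 1 higher, the median was -1.21, and 40.2% of genes on other chromosomes were lower. At an adjusted p of at most 0.01, 17 were lower, 9 of them at least 2-fold, and 1 higher, and 45.3% of genes on other chromosomes were lower. The share of all listed genes past 2-fold at this adjusted p was not worked out. With the region ended at 15000000 1 gene was higher. With its end at 35000000, 54 were lower, 36 of them at least 2-fold, 2 were at least 2-fold higher and the median was -1.14. Filters, a stricter p and other region ends change how many genes enter. For the pseudocounts, low genes gain size by construction. With 1 mean per line, no paired analysis was possible because the labels give 1 sample per group. Depth is unknown, so how far it limits values under 1 FPKM could not be worked out.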

Other observations

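The rest of the short arm, between the stretch described above and position 35000000, held further lower genes, named after their values were seen. PPFIBP1, a liprin, had 48.5 FPKM in the deficient line and 130 FPKM with BRCA1, and IPO8, a nuclear import receptor, had 11.8 against 29.4 FPKM. These kept 37.3% and 40.1% of the level with BRCA1. BHLHE41, a transcriptional repressor of the circadian clock, had 4.72 against 25.97 FPKM, and RESF1 had 1.93 against 15.5 FPKM. The single higher gene of the 21 was PTHLH, which encodes parathyroid hormone-related protein, with 6.49 FPKM in the deficient line and 2.58 FPKM with BRCA1. The authors' deposited table gives it a log2 fold change of 1.37 (adjusted p 0.0126). The share of annotated coding genes listed as lower was 31.2% there, 20 of 64, against 15.0% in distal 12p. Whether these shares differ was not tested.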
